A study of Mus musculus with 8 samples.

Results

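The genes described here are 10 components of innate sensing of mycobacterial material: the Toll-like receptors Tlr2 and Tlr4, their adaptor Myd88, the C-type lectin receptors Clec4d, Clec4e and Clec7a, the amplifying receptor Trem1, and the inflammasome genes Nlrp3, Casp1 and Casp4. They were chosen by name, with earlier results of these data known, out of 19938 genes that the platform annotation names by exactly 1 symbol. Each of the 10 has 1 probe set. Articular tissue of excised paws from male DBA1/J mice, aged 8 to 10 weeks, was profiled with 8 arrays (Affymetrix Mouse Gene 1.0 ST), 2 for each of 4 groups of 8 mice. All 4 groups received complete Freund adjuvant at the base of the tail and incomplete Freund adjuvant 3 weeks later, so that no array here comes from a mouse without mycobacterial adjuvant. The adjuvant group (labelled CFA) received nothing else. The adjuvant+MLIF group also received MLIF, a pentapeptide of the amoeba Entamoeba histolytica that inhibits monocyte locomotion, nasally each week for 9 weeks. The CIA group (collagen-induced arthritis) received 150 µg of chicken type II collagen in the complete adjuvant. The CIA+MLIF group had this and weekly nasal MLIF from 1 week before the first collagen injection to the end. The sample labels place collection 4 weeks after the booster, whereas the series text places it before the booster, and the labels of the adjuvant groups also name a collagen booster that the treatment protocol does not give them. The titles call the replicates biological. They do not tell whether the RNA on an array came from a single mouse or from a pool, and the p-values cover array-to-array spread only.

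Complete Freund adjuvant is an oil emulsion with killed mycobacteria. Trehalose dimycolate, a glycolipid of the mycobacterial wall, is bound by the lectins Mincle (gene Clec4e) and MCL (gene Clec4d), which signal through the Fc receptor gamma chain, Syk and Card9. Mycobacterial lipoproteins are sensed by TLR2, which like TLR4 signals through the adaptor MyD88 to NF-kappaB. Interleukin 1 beta is made as a precursor that caspase-1 cleaves once an inflammasome, for example that of NLRP3, has assembled. These receptors are found mainly on neutrophils, monocytes and macrophages.

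The deposited values are log2 signals, and a change is a difference of group means on this scale, tested with limma over all 28944 probe sets (an adjusted p under 0.05 passes; 2 arrays a group). CIA replicate 1 stood apart: its table had a median of 6.50, where the medians of the remaining arrays ran from 6.92 to 6.96. Across all probe sets the median change was -0.25 for CIA against adjuvant and 0.24 for CIA+MLIF against CIA, and some changes are also given relative to these medians. These medians rest on CIA replicate 1: they were -0.037 and 0.029 without it, and -0.44 and 0.43 without CIA replicate 2. The replicates of adjuvant+MLIF were unusually close (SD of their difference over probe sets 0.0936, against 0.207 to 0.324 in the other groups). The fit shares 1 spread per probe set over the 4 groups, so these close arrays enter the SE and p-value of every comparison. With only the groups compared, 10.7% of probe sets passed for CIA against adjuvant and 9.47% for CIA+MLIF against CIA. With array weights 6.86% and 4.36% passed, against 18.5% and 14.7% in the main fit. As a yardstick for low signals, the table's 6613 unannotated entries taken as array controls had a median of 5.88 on CIA replicate 1 and of 6.29 to 6.44 on the other arrays. Of the tissue's defining markers, all 6 for cartilage, all 5 for bone and osteoclasts and all 6 for fibroblasts and synovium lay above these control medians on every array. So did all 8 for skeletal muscle.

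CIA was set against adjuvant to see what collagen added where both groups had mycobacterial adjuvant. The lectin receptors Clec4d and Clec4e, the receptor Trem1, Casp4 and Myd88 rose in CIA, by log2 changes of 0.96 to 1.90. Tlr2, Tlr4, Clec7a, Casp1 and Nlrp3 did not pass the test at the deposited scaling. Of the 10 genes, 5 rose and 0 fell, where 4.3% of all probe sets rose and 14.2% fell (18.5% passed in either direction). The share that rose was 14.4% after quantile normalization, 13.4% after centring each array on its median and 10.7% without CIA replicate 1. The median change of the 10 genes was 0.68, against -0.25 over all probe sets. The CIA arrays lay wholly above the adjuvant arrays for 5 members and wholly below for 1 (Tlr4), where 12.5% and 44.7% of probe sets did so (57.2% either way). The count of members passing was 4 without adjuvant replicate 1 and 4 without adjuvant replicate 2, 7 without CIA replicate 1, and 6 (5 higher, 1 lower) without CIA replicate 2. Over all probe sets, 7.46%, 7.43%, 23.7% and 61.2% passed in these fits, so that the last count stands against a majority of probe sets called, mostly lower.

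Clec4d, the receptor MCL (probe set 10541614), had log2 signals of 6.08 and 6.35 in adjuvant, 6.12 and 6.32 in adjuvant+MLIF, 7.97 and 8.26 in CIA and 5.97 and 5.92 in CIA+MLIF. Both CIA arrays lay above every other array, and the signals of the other groups lay around the control medians. The rise in CIA was 1.90 (SE 0.17, adjusted p = 9.55e-05 by limma), or 2.14 relative to the median of all probe sets. Clec4e, the cord factor receptor Mincle (probe set 10547664), had 6.41 and 6.43 in adjuvant, 6.23 and 6.18 in adjuvant+MLIF, 7.68 and 8.15 in CIA and 6.49 and 6.27 in CIA+MLIF. Here too the CIA arrays stood clear of the other 6, which lay near the control medians. Its rise in CIA was 1.50 (SE 0.18, adjusted p = 0.000618 by limma), or 1.74 relative to the median. Since the low end of both genes is at the level of the control entries, the sizes of their changes are not well determined.

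Trem1, which amplifies inflammatory signals of neutrophils and monocytes (probe set 10445746), had 5.83 and 5.67 in adjuvant, 5.75 and 5.76 in adjuvant+MLIF, 6.57 and 7.41 in CIA and 5.80 and 5.67 in CIA+MLIF. It was above the control medians on the CIA arrays and on no other. The rise was 1.23 (SE 0.24, adjusted p = 0.00866 by limma), of a size that its low end leaves uncertain, and adjusted p was 0.0759 without adjuvant replicate 2. Clec7a, the beta-glucan receptor Dectin-1 (probe set 10548375), had 7.30 and 7.22 in adjuvant, 7.38 and 7.38 in adjuvant+MLIF, 7.08 and 7.61 in CIA and 6.62 and 7.02 in CIA+MLIF. The CIA arrays enclosed those of both adjuvant groups, and the CIA+MLIF arrays were the lowest. The difference between CIA and adjuvant was 0.09 (95% interval -0.38 to 0.56, adjusted p = 0.775 by limma).

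**Figure D1:**
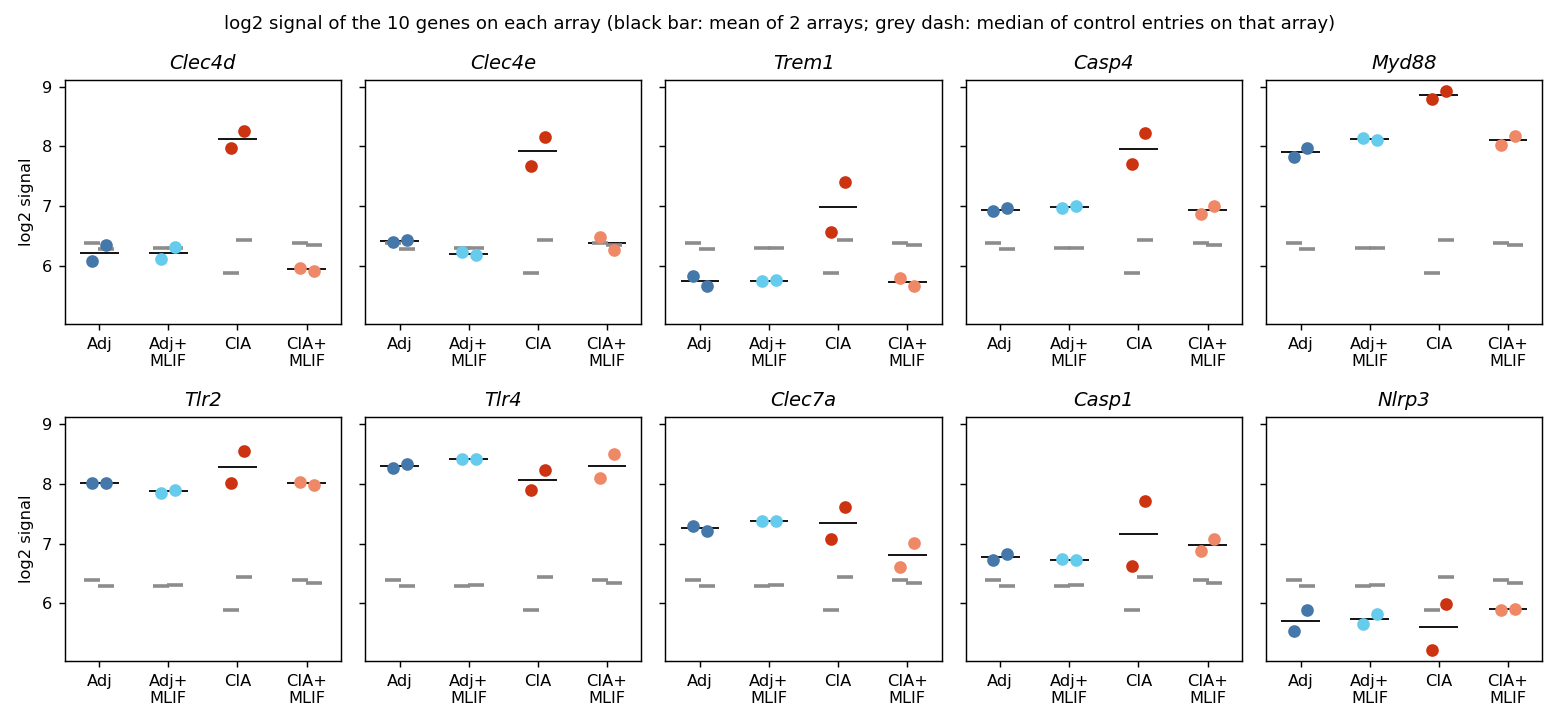
log2 signal (vertical axis) of each of the 10 genes on the 8 arrays, by group: adjuvant, adjuvant+MLIF, CIA and CIA+MLIF. Points are arrays, black bars are means of 2 arrays and grey dashes the median of the control entries on that array. In the top row the CIA arrays lie above all others, while Nlrp3 lies under the control median on all 8 arrays.

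Among the signalling genes, Myd88 (probe set 10597648) had 7.83 and 7.98 in adjuvant, 8.14 and 8.11 in adjuvant+MLIF, 8.78 and 8.93 in CIA and 8.02 and 8.17 in CIA+MLIF. All 8 values were above the control medians, and the CIA arrays did not overlap with any other group. The adaptor rose in CIA by 0.96 (SE 0.15, adjusted p = 0.00224 by limma), or 1.20 relative to the median. Of the receptors that use it, Tlr2 (probe set 10498992) had 8.02 and 8.02 in adjuvant, 7.85 and 7.90 in adjuvant+MLIF, 8.02 and 8.54 in CIA and 8.02 and 7.99 in CIA+MLIF. Only the second CIA array stood out. The Tlr2 difference between CIA and adjuvant was 0.26 (95% interval -0.15 to 0.68, adjusted p = 0.322 by limma) as deposited, but it passed as a rise of 0.40 after quantile normalization (adjusted p = 0.0197), of 0.48 with each array centred on its median (adjusted p = 0.00835) and of 0.52 without CIA replicate 1 (adjusted p = 0.00984). Tlr4, the endotoxin receptor (probe set 10505517), had 8.26 and 8.33 in adjuvant, 8.41 and 8.42 in adjuvant+MLIF, 7.89 and 8.23 in CIA and 8.10 and 8.49 in CIA+MLIF. CIA was the lowest group, with a difference from adjuvant of -0.23 (95% interval -0.64 to 0.18, adjusted p = 0.381 by limma) that came to 0.02 relative to the median of all probe sets. It passed under none of the 18 alternatives.

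The inflammasome genes differed among themselves. Casp4 (probe set 10582997), the mouse caspase-11 that responds to cytosolic endotoxin and cleaves gasdermin D, had 6.92 and 6.97 in adjuvant, 6.98 and 7.002 in adjuvant+MLIF, 7.71 and 8.22 in CIA and 6.88 and 7.003 in CIA+MLIF. The CIA arrays were clear of all others. Casp4 rose by 1.02 (SE 0.18, adjusted p = 0.00523 by limma), with adjusted p = 0.0535 without adjuvant replicate 1. Casp1, the caspase that matures interleukin 1 beta (probe set 10582985) and the neighbour of Casp4 on its chromosome, had 6.72 and 6.82 in adjuvant, 6.75 and 6.72 in adjuvant+MLIF, 6.63 and 7.71 in CIA and 6.87 and 7.07 in CIA+MLIF. The CIA arrays were its lowest and its highest value. The Casp1 difference of 0.40 (95% interval -0.27 to 1.06, adjusted p = 0.347 by limma) turned on them: it was 0.94 without CIA replicate 1 (adjusted p = 0.00224) and -0.14 without CIA replicate 2 (adjusted p = 0.330), and passed narrowly at 0.61 after quantile normalization (adjusted p = 0.0488) and at 0.61 after centring (adjusted p = 0.0478). Nlrp3, the sensor itself (probe set 10376513), had 5.54 and 5.88 in adjuvant, 5.66 and 5.83 in adjuvant+MLIF, 5.22 and 5.997 in CIA and 5.89 and 5.91 in CIA+MLIF. All 8 values lay under the control medians, so no level of Nlrp3 can be read from them. Its difference of -0.11 (adjusted p = 0.770 by limma) had the opposite sign after quantile normalization (0.30) and after centring (0.11), and was -0.50 without CIA replicate 2 (adjusted p = 0.0318).

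The starts of the genes that rose were set beside that of Tlr2 to show what short motifs their upstream sequence holds. RefSeq sequence (GRCm38.p6) from 250 bases before to 50 after the start was available for 9 of the 10 genes, all but Tlr4. Capitals mark matches, on either strand, to an NF-kappaB motif, to the C/EBP motif TTGCNNAA, to the PU.1 motif GAGGAAG or to the AP-1 motif TGANTCA. The NF-kappaB motif was found in 3 of the 9 genes (Tlr2, Casp4 and 1 of 2 starts of Nlrp3), against 8.46% of all 32851 promoters of this length. Here and below genes are counted at any of their starts, while the shares count each promoter. Genes with 2 starts thus had 2 chances of a match. The PU.1 motif was in 2 (Clec4d and Nlrp3; 13.6% of all), the C/EBP motif in 1 (Clec4e; 10.8%) and the AP-1 motif in 0 (7.81%). In Tlr2 and in Casp4 the stretch farther upstream holds overlapping NF-kappaB matches, shifted by 1 base, and is counted as 1 stretch of 11 bases. Clec4d and Clec4e, which are neighbours on the chromosome, shared none of these motifs, and the windows of Trem1, Myd88, Casp1 and Clec7a held none of them.
Clec4d (chr6:123261857-123262156, plus strand, PU.1 motif from 241 bases before the start): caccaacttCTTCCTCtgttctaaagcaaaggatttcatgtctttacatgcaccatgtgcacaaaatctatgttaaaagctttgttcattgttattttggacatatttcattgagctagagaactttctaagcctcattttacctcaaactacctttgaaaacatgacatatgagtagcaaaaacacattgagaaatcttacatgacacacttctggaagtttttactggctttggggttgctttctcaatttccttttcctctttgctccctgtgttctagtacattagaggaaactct
Clec4e (chr6:123289822-123290121, minus strand, C/EBP motif from 66 bases before the start): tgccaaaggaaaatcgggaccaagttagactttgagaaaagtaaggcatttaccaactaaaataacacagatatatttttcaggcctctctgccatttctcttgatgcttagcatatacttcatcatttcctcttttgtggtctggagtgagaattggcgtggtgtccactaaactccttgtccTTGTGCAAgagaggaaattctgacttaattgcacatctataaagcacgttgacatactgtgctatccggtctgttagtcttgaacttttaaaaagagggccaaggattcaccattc
Casp4 (chr9:5308599-5308898, plus strand, NF-kappaB motifs from 93 and from 39 bases before the start): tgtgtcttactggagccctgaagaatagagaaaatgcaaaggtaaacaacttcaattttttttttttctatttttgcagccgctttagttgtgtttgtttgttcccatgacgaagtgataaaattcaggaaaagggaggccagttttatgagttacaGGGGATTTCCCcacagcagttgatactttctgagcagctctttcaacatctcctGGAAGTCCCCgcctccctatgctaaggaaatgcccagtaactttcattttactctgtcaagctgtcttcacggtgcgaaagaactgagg
Tlr2 (chr3:83841559-83841858, minus strand, NF-kappaB motifs from 173 and from 8 bases before the start): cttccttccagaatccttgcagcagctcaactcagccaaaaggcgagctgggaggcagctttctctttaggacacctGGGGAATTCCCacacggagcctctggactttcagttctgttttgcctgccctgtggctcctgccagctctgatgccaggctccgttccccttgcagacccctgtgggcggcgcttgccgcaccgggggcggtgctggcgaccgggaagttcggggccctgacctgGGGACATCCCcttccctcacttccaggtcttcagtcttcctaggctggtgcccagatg
Of the 5 genes that rose, only Casp4 held the NF-kappaB motif in its window. A match describes letters and not a bound site.

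What the peptide changed in collagen-immunised mice was read from CIA+MLIF against CIA. This comparison shares the CIA arrays with the comparison above, so the 2 sets of changes are not independent. With MLIF, Clec4d, Clec4e, Trem1, Casp4 and Myd88 were lower than in CIA alone: 5 of the 10 genes fell and 0 rose, where 3.25% of all probe sets fell and 11.5% rose (14.7% passed in either direction). The share that fell was 13% after quantile normalization and 12.1% after centring. The median change of the 10 genes was -0.64, against 0.24 over all probe sets. The CIA+MLIF arrays lay wholly below the CIA arrays for 6 members, the 5 and Clec7a, and wholly above for 0, where 10.9% and 40.7% of probe sets did so (51.6% either way). Clec4d fell most, by 2.17 (SE 0.17, adjusted p = 9.81e-05 by limma), to the lowest signals of any group. Clec4e fell by 1.53 (SE 0.18, adjusted p = 0.000795 by limma). These Clec4d and Clec4e falls passed under each of the 18 alternatives, with changes of -2.39 to -2.02 and of -1.77 to -1.30.

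The falls of the other 3 genes passed as deposited but not under every alternative, while their sizes stayed similar without a CIA+MLIF array. Over all left-out arrays the changes ran from -1.67 to -0.83 for Trem1, from -1.28 to -0.77 for Casp4 and from -0.83 to -0.68 for Myd88. The ends for Trem1 and Casp4 came from leaving out a CIA array. Trem1 fell by 1.25 (SE 0.24, adjusted p = 0.00989 by limma), and by 1.32 without CIA+MLIF replicate 1 (adjusted p = 0.0674) and 1.19 without CIA+MLIF replicate 2 (adjusted p = 0.0766). Casp4 fell by 1.02 (SE 0.18, adjusted p = 0.00658 by limma), and by 0.96 without CIA+MLIF replicate 1 (adjusted p = 0.0701). Myd88 fell by 0.76 (SE 0.15, adjusted p = 0.00986 by limma). The Myd88 call was lost without CIA+MLIF replicate 1, with array weights and in a fit of only the groups compared (adjusted p up to 0.135), with a change of -0.68 in the first of these and the deposited change in the others.

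Clec7a, at -0.53 (95% interval -0.997 to -0.06, adjusted p = 0.115 by limma), and Tlr2, at -0.27 (95% interval -0.69 to 0.14, adjusted p = 0.315), did not pass as deposited. Under quantile normalization they did, at -0.73 (adjusted p = 0.00811) and -0.41 (adjusted p = 0.0211), and likewise after centring and without CIA replicate 1. Casp1 differed by -0.19 (95% interval -0.86 to 0.47, adjusted p = 0.660), and its sign depended on the CIA array kept, with -0.73 without CIA replicate 1 (adjusted p = 0.00759) and 0.35 without CIA replicate 2 (adjusted p = 0.0431). The intervals of Tlr4, at 0.23 (-0.18 to 0.65), and of Nlrp3, at 0.29 (-0.26 to 0.85), included changes of either sign. Without CIA replicate 2 the Nlrp3 difference was 0.68, at signals under the control medians on every array. The count of members passing was 8 without CIA replicate 1, 7 (5 lower, 2 higher) without CIA replicate 2 and 2 without CIA+MLIF replicate 1, with 7 lower after quantile normalization or centring. Over all probe sets 19.9% passed without CIA replicate 1, 60% without CIA replicate 2, 5.44% without CIA+MLIF replicate 1, 24.5% after quantile normalization and 24.1% after centring.

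**Figure D2:**
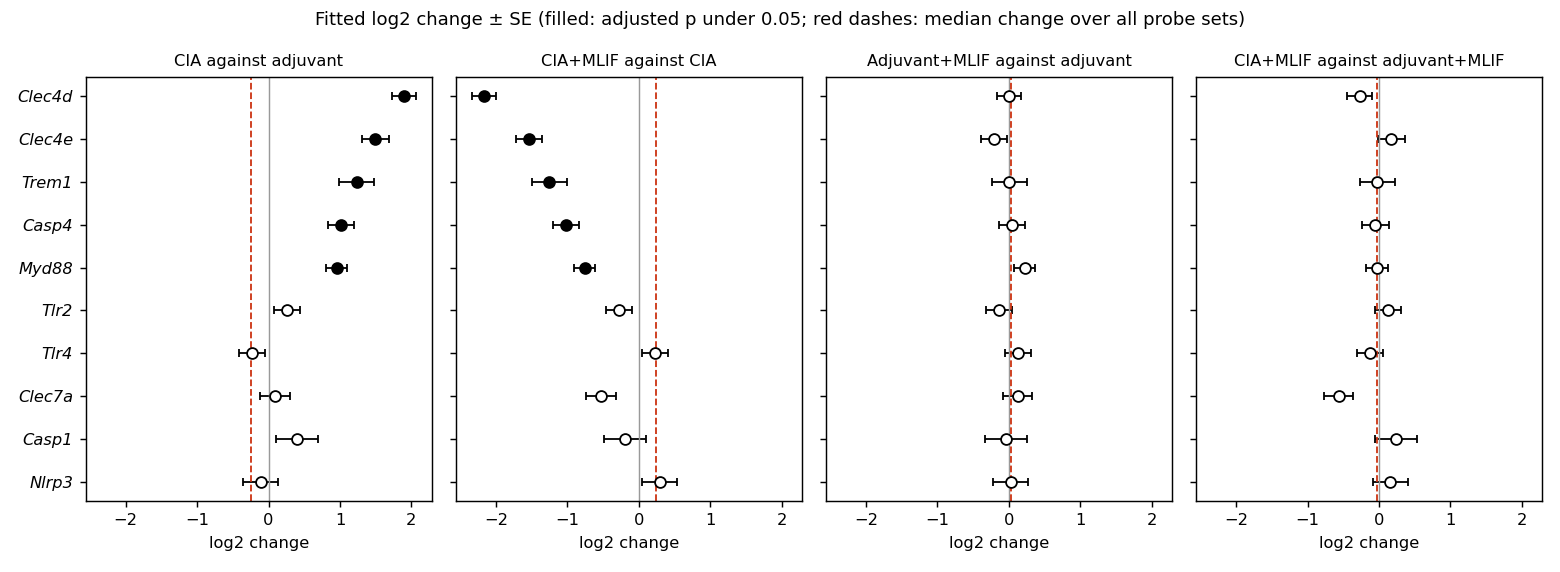
Fitted log2 change (horizontal axis, ± SE) of each gene in 4 comparisons of 2 groups of 2 arrays each. Filled points pass at an adjusted p under 0.05, and the red dashes mark the median change over all 28944 probe sets. Filled points occur only in the 2 comparisons that include CIA, 5 in each.

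MLIF without collagen was examined by comparing adjuvant+MLIF with adjuvant. No member passed (0 of 10 by limma, 0 at an unadjusted p under 0.05), and of all probe sets 0% were called. Other settings called 365 probe sets (quantile normalization), 275 (centring), 676 (only the groups compared), 1440 (array weights) and 529 (without either CIA array), but no member under any of the 18 alternatives. Arrays did not overlap for 4 members in the higher and 2 in the lower direction, where 31.7% and 23% of probe sets did not (54.7% either way). Changes ran from -0.21 for Clec4e to 0.23 for Myd88. For Clec4d the 95% interval was -0.39 to 0.39 and for Trem1 -0.55 to 0.56, so smaller differences were not detectable with 2 arrays per group.

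CIA+MLIF was then compared with adjuvant+MLIF, to ask what collagen changed in the presence of the peptide. Again 0 of 10 members passed by limma, where 0.729% of probe sets did (0.712% higher, 0.0173% lower). Arrays did not overlap for 4 members in the higher and 2 in the lower direction, against 21% and 32.2% of probe sets (53.2% either way). At an unadjusted p under 0.05 there was 1, Clec7a, at -0.56 (95% interval -1.03 to -0.10, adjusted p = 0.851), which passed with array weights (adjusted p = 0.0370). Clec4d differed by -0.27 (95% interval -0.66 to 0.12) and Clec4e by 0.18 (95% interval -0.24 to 0.59). These intervals exclude a rise as large as those of 1.90 and 1.50 fitted between CIA and adjuvant.

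Whether the peptide's change differed between collagen and adjuvant mice was tested as the interaction. It passed for 4 of the 10 genes, all with a lower value for the change in collagen mice, where 1.62% of probe sets passed in that direction, 5.62% in the other and 7.24% in either. Clec4d gave -2.17 (SE 0.24, adjusted p = 0.000931 by limma), Clec4e -1.32 (SE 0.26, adjusted p = 0.0149), Casp4 -1.07 (SE 0.26, adjusted p = 0.0402) and Myd88 -0.98 (SE 0.21, adjusted p = 0.0223). Trem1 had -1.26 (SE 0.35, adjusted p = 0.0653) and did not pass as deposited, but passed under 6 of 16 alternatives, among them quantile normalization and centring. Clec7a, at -0.65 (adjusted p = 0.239), passed under 4 of 17. Only the Clec4d interaction passed under all 17 alternatives. The count fell to 1 without adjuvant replicate 1, adjuvant replicate 2, adjuvant+MLIF replicate 1, adjuvant+MLIF replicate 2 or CIA+MLIF replicate 2, and with the close adjuvant+MLIF arrays averaged as 1. It was 2 without CIA+MLIF replicate 1, 7 without CIA replicate 1 and 6 (5 lower, 1 higher) without CIA replicate 2, and 6 after quantile normalization or centring. Over all probe sets 3.64% to 4.45% passed without an adjuvant, adjuvant+MLIF or CIA+MLIF array, 16% without CIA replicate 1, 45.1% without CIA replicate 2, 17.4% after quantile normalization and 16.3% after centring.

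Over all probe sets, arrays did not overlap for 57.2% in CIA against adjuvant (12.5% with CIA higher) and 51.6% in CIA+MLIF against CIA. The share was 54.7% in adjuvant+MLIF against adjuvant and 53.2% in CIA+MLIF against adjuvant+MLIF. Non-overlap alone is thus weak evidence of an order. Ordered by group means, CIA was the highest group for Clec4d, Clec4e, Trem1, Casp4 and Myd88. For these genes the CIA arrays did not overlap with those of the next group. Below CIA, neighbouring groups differed by at most 0.27. Clec4d followed with adjuvant and adjuvant+MLIF, which overlapped, and then CIA+MLIF, which did not overlap with them. Clec4e followed with adjuvant and CIA+MLIF, which overlapped, and then adjuvant+MLIF, clear of both. For Trem1 all 3 lower groups overlapped with their neighbours. For Casp4, adjuvant+MLIF came second and stood 0.05 above adjuvant without overlap (unadjusted p = 0.807 by limma), and adjuvant overlapped with CIA+MLIF. For Myd88, adjuvant+MLIF and CIA+MLIF overlapped, and adjuvant lay 0.20 lower without overlap. CIA also had the highest mean for Tlr2 and Casp1, but its arrays overlapped with those of the next group, and below it adjuvant+MLIF was last in both. Adjuvant+MLIF led for Tlr4 and Clec7a, overlapping with CIA+MLIF and with CIA respectively, with CIA last for Tlr4 and CIA+MLIF last for Clec7a, neither overlapping with the group above. Nlrp3, below the control medians throughout, was not ordered.

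The wider pathways were described from lists of the other genes taken from general knowledge, with earlier results of these data known. Their counts stand against the shares of all probe sets that passed in either direction: 18.5% for CIA against adjuvant and 14.7% for CIA+MLIF against CIA, or 28.1% and 24.5% after quantile normalization, 23.7% and 19.9% without CIA replicate 1, and 61.2% and 60% without CIA replicate 2. Without an adjuvant or MLIF array, 7.43% to 13.8% passed for CIA against adjuvant, and 5.44% to 9.61% for CIA+MLIF against CIA. Lectin and TREM receptors with their adaptors and the Syk pathway rose in 5 of 26 measured cases and fell in 0 in CIA against adjuvant (median change 0.14). Clec4n, the mannan receptor Dectin-2 and the neighbour of Clec4d on the chromosome, rose by 1.38 (SE 0.28, adjusted p = 0.00945 by limma), from 6.97 and 7.61 in adjuvant to 8.51 and 8.83 in CIA. Tyrobp, the adaptor DAP12 of TREM receptors, rose by 0.78, Fcer1g, the gamma chain through which Mincle signals, by 0.71, Clec4a2, an inhibitory lectin receptor, by 0.70 and Treml2 by 0.67. Downstream, Syk (0.13, adjusted p = 0.594) and Card9 (0.06, adjusted p = 0.824) did not pass. Trem3, next to Trem1 on the chromosome, had 6.31 and 6.27 in adjuvant and 6.38 and 7.62 in CIA, so that 1 array set its difference (0.71, adjusted p = 0.149).

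With MLIF 6 of the 26 fell and 0 rose (median change -0.12): Clec4n by 1.75, Tyrobp by 0.86, Clec4a2 by 0.81, Fcer1g by 0.77, Clec12a, an inhibitory receptor of myeloid cells, by 0.77 and Treml2 by 0.71. Clec4n stood at 6.55 and 7.30 in CIA+MLIF, overlapping with adjuvant. These counts depended on the arrays. For CIA against adjuvant the count was 0 without adjuvant replicate 1, 2 without adjuvant replicate 2, 3 without any 1 of the 4 MLIF arrays and 10 without either CIA array, and quantile normalization gave 11 higher and 1 lower. For CIA+MLIF against CIA it was 1 without either CIA+MLIF array, 3 without either adjuvant+MLIF array, 11 without CIA replicate 1 and 10 without CIA replicate 2, and quantile normalization gave 13 lower and 1 higher.

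None of the 8 other Toll-like receptors measured passed in either comparison (limma, 0 of 8 in each; at an unadjusted p under 0.05, 1 for CIA against adjuvant, Tlr12 at -0.59, and 0 for CIA+MLIF against CIA). Tlr6, a partner of TLR2, differed by 0.11 between CIA and adjuvant (adjusted p = 0.675), Tlr1, another partner, by 0.10 at signals under the control medians on every array, and Tlr13 by -0.03 (adjusted p = 0.945). In CIA against adjuvant quantile normalization called 2 of them higher, and 3 passed without CIA replicate 1, 5 without CIA replicate 2 and 1 without either CIA+MLIF array. In CIA+MLIF against CIA quantile normalization called 1 lower, 2 passed without CIA replicate 1 and 3 without CIA replicate 2.

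Of 20 accessory proteins, adaptors and kinases of Toll-like receptors, 2 rose in CIA, Lbp by 0.84 (adjusted p = 0.00627 by limma) and Cd14 by 0.79 (adjusted p = 0.0117), which hand endotoxin to TLR4. Cd36, a scavenger receptor, fell by 0.73 and Cd180, a TLR-like protein of B cells, by 0.71 (median change -0.11), so that the 4 of 20 passing were near the share of all probe sets. With MLIF 1 of 20 passed, Cd14, which fell by 0.78 (adjusted p = 0.0147 by limma; median change 0.14). Cd14 had 7.42 and 7.49 in adjuvant, 8.05 and 8.44 in CIA and 7.43 and 7.50 in CIA+MLIF. For CIA against adjuvant the count of 4 became 0 without adjuvant replicate 1, 1 without adjuvant replicate 2, 2 without either adjuvant+MLIF array and 10 without CIA replicate 2. Quantile normalization gave 3 higher and 4 lower. For CIA+MLIF against CIA it became 0 without either CIA+MLIF array, 2 without CIA replicate 1 and 9 without CIA replicate 2, and quantile normalization gave 2 higher and 3 lower.

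Of 25 other inflammasome and cytosolic sensor genes, 1 rose in CIA and 2 fell (median change -0.19), a smaller share than the 18.5% of all probe sets. Sting1, the adaptor of cytosolic DNA sensing, rose by 0.97 (SE 0.14, adjusted p = 0.00185 by limma), from 8.19 and 8.36 to 9.17 and 9.31. Nek7, a kinase that NLRP3 needs for assembly, fell by 0.76 and Txnip, a thioredoxin inhibitor, by 0.57. With MLIF Sting1 fell by 0.98 (adjusted p = 0.00238 by limma), to 8.28 and 8.24, and Casp8 by 0.73, with 0 of the 25 rising (median change 0.17). Pycard, the adaptor between sensor and caspase-1, differed by 0.26 in CIA against adjuvant (adjusted p = 0.503) and Gsdmd, the pore-forming substrate of caspase-11, by 0.15 (adjusted p = 0.472). The count for CIA against adjuvant was 1 without either adjuvant array, 8 without CIA replicate 1 and 15 without CIA replicate 2, and 7 higher and 3 lower after quantile normalization. For CIA+MLIF against CIA it was 1 without either CIA+MLIF array, 4 without CIA replicate 1 and 16 without CIA replicate 2, and 6 lower and 1 higher after quantile normalization.

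Genes that these pathways induce rose in 6 of 18 cases in CIA and fell in 0 (median change 0.43). Il1b, the cytokine matured by caspase-1, rose by 1.41 (SE 0.29, adjusted p = 0.0101 by limma), from 6.96 and 7.27 to 8.03 and 9.01. Ptgs2, the inducible cyclooxygenase, rose by 1.38, Il6 by 1.21 at signals under the control medians on every array, Acod1, the enzyme that makes itaconate, by 1.15, Il1rn, the interleukin 1 receptor antagonist, by 0.99 and the chemokine Ccl3 by 0.76. With MLIF 5 of the 18 fell and 0 rose (median change -0.32): Il1b by 1.63, Ptgs2 by 1.26, Acod1 by 1.15, Ccl3 by 0.95 and Il1rn by 0.81. For CIA against adjuvant the count was 1 without adjuvant replicate 1, 2 without adjuvant replicate 2 and 10 after quantile normalization. For CIA+MLIF against CIA it was 0 without CIA+MLIF replicate 1, 2 without CIA+MLIF replicate 2, 2 without either adjuvant array, 8 without CIA replicate 1, 9 without CIA replicate 2 and 11 after quantile normalization.

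**Figure D3:**
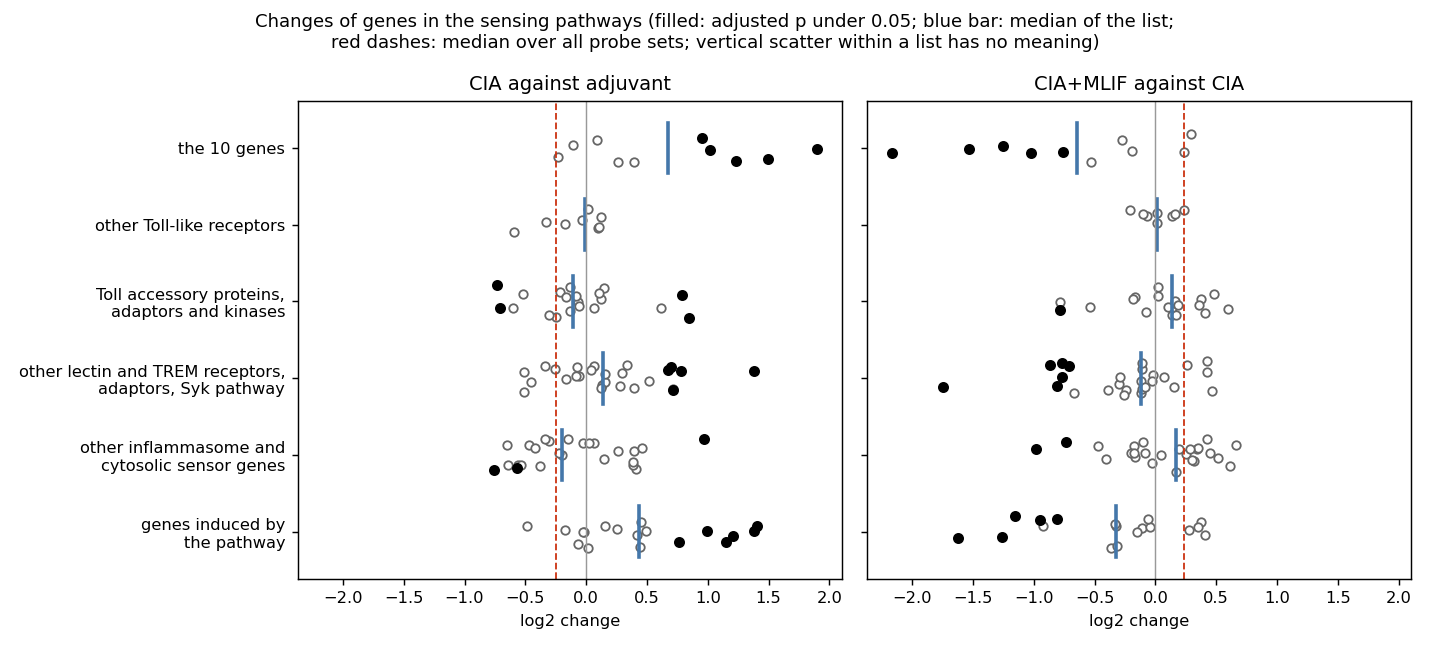
log2 change (horizontal axis) of every measured gene in the 10 genes and the 5 pathway lists (rows), for CIA against adjuvant (left) and CIA+MLIF against CIA (right), which share the CIA arrays. Filled points pass at an adjusted p under 0.05, blue bars are list medians and red dashes the median of all probe sets. The other Toll-like receptors hold no filled point in either panel.

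Markers of the cells that carry these receptors were also read. The share of all probe sets passing was 18.5% in CIA against adjuvant and 14.7% in CIA+MLIF against CIA. In bulk tissue, more cells of a type and more RNA per cell cannot be told apart. Of 12 neutrophil markers, 12 rose in CIA against adjuvant and 12 fell in CIA+MLIF against CIA, and their mean log2 signal was 7.08 and 7.26 in adjuvant, 7.87 and 7.88 in adjuvant+MLIF, 9.09 and 9.38 in CIA and 7.38 and 7.42 in CIA+MLIF. For adjuvant+MLIF against adjuvant 0 of the 12 passed by limma (9 at an unadjusted p under 0.05; lowest adjusted p = 0.228). On the adjuvant arrays 8 of the 12 neutrophil markers were above the control medians, on the CIA+MLIF arrays 9, and on the others 12. Of 10 monocyte and macrophage markers, 1 rose (Mpeg1, 0.85) and 1 fell (Cd163, -1.14) in CIA, near the share of all probe sets. With MLIF 1 rose (Cd163, 1.38) and 2 fell (Mpeg1, -1.26, and Ccr2, -0.82). At an unadjusted p under 0.05 by limma there were 4 in CIA and 9 with MLIF. Of these 9, Cd163 and Mrc1 were higher and the rest lower. The median change of the 10 markers was 0.12 in CIA and -0.45 with MLIF, against -0.25 and 0.24 over all probe sets. Their mean log2 signal was 9.33 and 9.49 in adjuvant, 9.44 and 9.47 in adjuvant+MLIF, 9.30 and 9.60 in CIA and 9.11 and 9.32 in CIA+MLIF.

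Other tissue moved with the groups too. Of 7 epidermal markers, 7 rose in CIA, and their mean was 5.88 and 5.81 in adjuvant, 5.94 and 5.91 in adjuvant+MLIF, 11.68 and 11.95 in CIA and 10.72 and 10.83 in CIA+MLIF. With MLIF 5 of the 7 fell, Krt2 by 1.83, Krtdap by 1.32, Lor by 1.16, Krt10 by 1.03 and Krt14 by 1.0, and all 7 were higher in CIA+MLIF than in adjuvant+MLIF. All 8 muscle markers fell in CIA, and their mean was 12.17 and 12.41 in adjuvant, 12.37 and 12.36 in adjuvant+MLIF, 10.57 and 10.85 in CIA and 12.06 and 12.40 in CIA+MLIF. With MLIF all 8 rose. Of 5 bone and osteoclast markers, 4 rose in CIA and fell with MLIF, the osteoclast genes Acp5 (2.17, then -2.13), Ctsk (2.06, then -2.05) and Atp6v0d2 (2.03, then -2.26) and the bone matrix gene Ibsp (1.19, then -1.21), while Sost, an osteocyte gene, went the other way (-1.30, then 0.90). Of 6 fibroblast and synovium markers, 4 rose in CIA and fell with MLIF, Fap (1.04, then -1.17), Thy1 (0.93, then -0.77), Col1a1 (0.85, then -0.85) and Pdpn (0.68, then -0.75). All 5 adipocyte markers fell in CIA, and 4 rose with MLIF. Of the few lymphocyte markers, 0 of 5 for T cells and 0 of 4 for B cells passed in CIA against adjuvant by limma (1 and 0 at an unadjusted p under 0.05). With MLIF 1 of the 5 passed, Cd3g, which fell by 0.66, and 0 of the 4. Of 6 mast cell markers, 2 fell in CIA, Cpa3 by 0.68 and Kit by 0.76, and 1 rose with MLIF, Kit by 0.66. Of 6 cartilage markers 1 passed, Cytl1, which fell by 2.41 in CIA and rose by 2.14 with MLIF. None of the 4 endothelial markers passed in either comparison. The part of any of these cell types in the changes of the 10 genes was not tested.

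**Figure D4:**
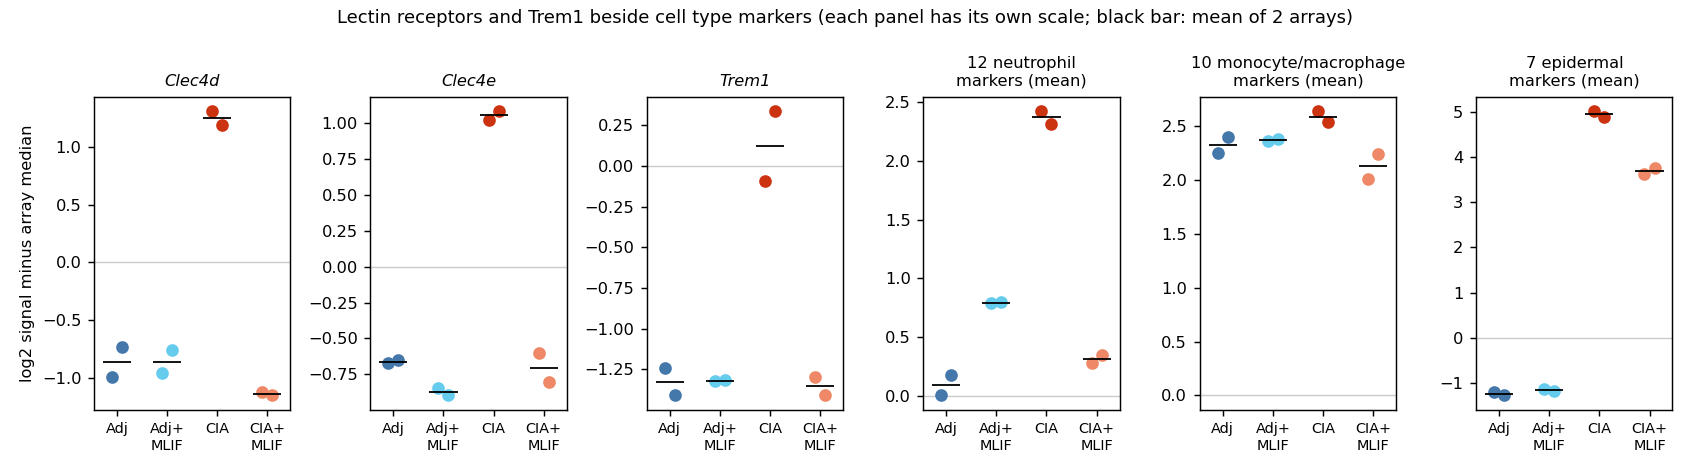
log2 signal minus the median of all probe sets on the same array (vertical axis, 1 scale per panel) for Clec4d, Clec4e and Trem1 and for the mean of 12 neutrophil, 10 monocyte and macrophage and 7 epidermal markers. Points are arrays and black bars means of 2 arrays. After this subtraction all 6 panels are highest in CIA. Before it, the monocyte and macrophage markers had means of 9.30 and 9.60 in CIA, on either side of the 9.44 and 9.47 in adjuvant+MLIF. The low end of Clec4d, Clec4e and Trem1 is at the level of the control entries.

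The genes nearest in pattern to a member were sought for the 4 members whose group means spanned over 1 on the log2 scale, among 13630 genes above the control level, by the root mean square difference of centred profiles over the 8 arrays. For Clec4d they were Atp6v0d2, a proton pump subunit of osteoclasts (difference 0.12), and Mmp3, the stromelysin (0.16). Clec4e lay nearest Slpi, the secreted leukocyte protease inhibitor (0.11), and Sele, the endothelial selectin (0.11). Trem1 lay nearest Prss35 (0.090) and Krtap10-4 (0.11), and Casp4 nearest Plod2, a collagen lysyl hydroxylase (0.069), and Gpm6b (0.075). With 8 arrays in 4 groups, such nearness mostly reflects a like difference between CIA and the rest. For example, group means of Atp6v0d2 were 7.04, 7.21, 9.07 and 6.81 in adjuvant, adjuvant+MLIF, CIA and CIA+MLIF.

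**Figure D5:**
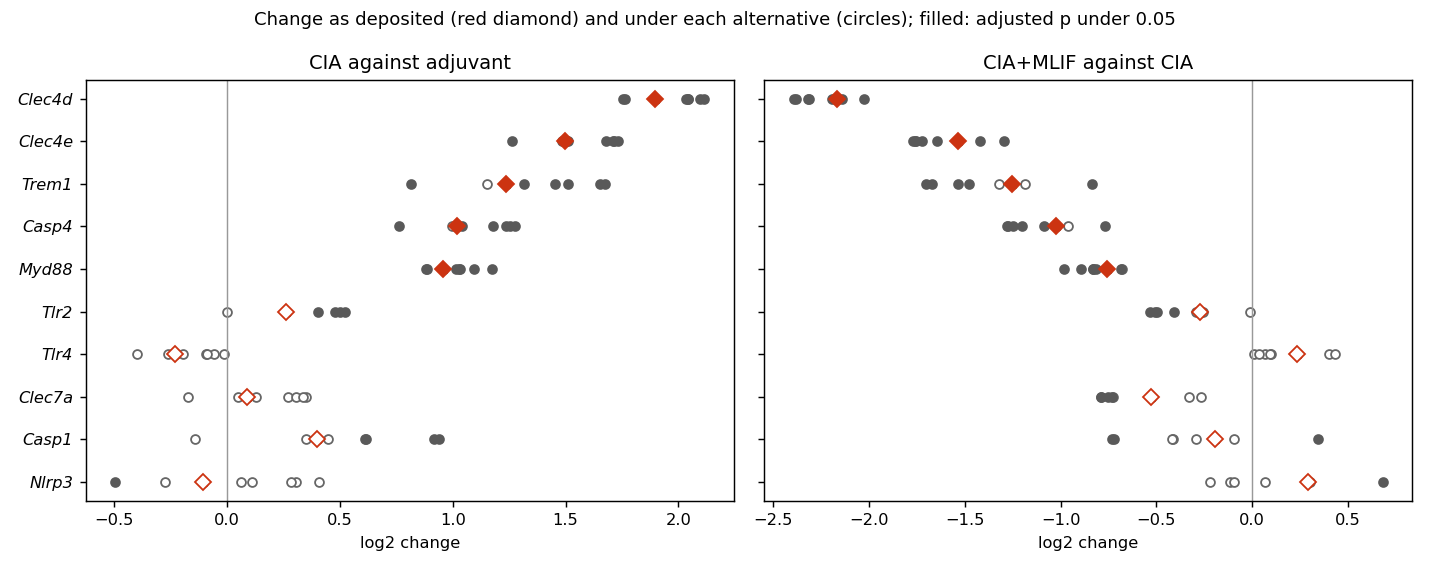
log2 change (horizontal axis) of each gene as deposited (red diamonds) and under the alternatives for scaling, filtering, fitting and left-out arrays (circles; 18 for each gene, 17 for Trem1 and Nlrp3). Filled symbols pass at an adjusted p under 0.05, and settings that leave the change as deposited lie under the diamond. Clec4d and Clec4e stay filled throughout, and Tlr2 (both panels), Casp1 (left) and Clec7a (right) are filled only after rescaling or without CIA replicate 1. Casp1 on the right is filled without either CIA array, on opposite sides of 0.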

How the data were processed

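Values were used as the authors deposited them: 1 log2 signal per probe set and array. The values span 1.84 to 14.90, from which the unit was taken. Per the labels' protocol, biotin labelling used 300 ng of purified RNA. No source used here gives the software, background correction, summary or normalization. Entries with the lowest identifiers (6613 of 35557) carry no gene annotation, were taken as array controls and left out. Gene names came from the platform's annotation: of 28944 probe sets, 21789 have 1 symbol (21766 of these in RefSeq), 1621 several and 5534 none.

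All 5 comparisons came from 1 limma fit (limma 3.58.1, R 4.3.3) of 4 group means to the 8 arrays, with two-sided moderated tests, Benjamini-Hochberg adjustment over all probe sets and 4 residual degrees of freedom. The fit was tested on simulated data. Pathway genes are named where they passed, at most 6 per list and direction. The members, lists and alternatives were chosen with earlier results of these data known. Older symbols were used for 1 list gene (Rigi, as Ddx58), and 12 list genes had no probe set of their own. Replicate numbers were checked for pairing: same-numbered deviations correlated at -0.11 to 0.39, which does not settle whether the numbers pair the arrays. Array data carry no sequencing depth, and the number of arrays limits the precision. Figures were drawn with Matplotlib 3.10.9.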

Additional observations from a re-analysis of the deposited data

Results flagged for a closer look

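For 4 of the 10 genes the change with MLIF differed between collagen and adjuvant mice by the interaction test. Each had a lower value of that change in collagen mice. Of all probe sets, 1.62% passed in this direction and 7.24% in either. In adjuvant mice the change was -0.21 for Clec4e, 0.05 for Casp4 and 0.23 for Myd88, and Clec4d was level. The log2 values of the difference were -2.17 for Clec4d, -1.32 for Clec4e, -1.07 for Casp4 and -0.98 for Myd88 (limma, 8 arrays). Only the Clec4d call was kept under all 17 alternatives, and those of Clec4e, Casp4 and Myd88 were lost under some. No group was large enough for a test of single outlying arrays.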

How the results depend on the processing

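Besides the deposited values, 18 alternatives were run, 2 other scalings, a filter on low signals, other fits and each array left out, with quantile normalization without CIA replicate 1 added after seeing the data. None of the 14 called member results reversed, and 6 of them kept their call under every alternative run. The count of members passing ranged from 4 to 7 over the left-out arrays for CIA against adjuvant, from 2 to 8 for CIA+MLIF against CIA and from 1 to 7 for the interaction. It was 0 under each left-out array in the 2 other comparisons, and 1 with array weights for CIA+MLIF against adjuvant+MLIF. With array weights 2.28% of all probe sets passed for CIA+MLIF against adjuvant+MLIF. Fits that leave 1 array in a group, the added setting and the averaging of adjuvant+MLIF among them, called widely differing shares of all probe sets. Their counts of members thus do not describe the members alone. The replicate number as a block gave 5, 5, 0, 0 and 4 members over the 5 comparisons and changed no count. Over all probe sets 18%, 14%, 0%, 0.691% and 6.99% passed in that fit. Deviations of same-numbered arrays correlated at -0.1075 to 0.3899. The highest value was for adjuvant and CIA+MLIF, so this check does not settle whether the numbers pair the arrays. The filter on low signals leaves Trem1 and Nlrp3 without a value.

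Signs turned for the following members, none of them called as deposited. For CIA against adjuvant, Nlrp3 had 0.30 after quantile normalization, 0.11 after centring and 0.41 under the added setting, and with arrays left out it ran from -0.50 to 0.28, Casp1 from -0.14 to 0.94 and Clec7a from -0.17 to 0.35. For CIA+MLIF against CIA, Nlrp3 had -0.12 after quantile normalization and -0.22 under the added setting, and with arrays left out it ran from -0.096 to 0.68 and Casp1 from -0.73 to 0.35. For adjuvant+MLIF against adjuvant, Clec4d had 0.00085 after centring, and with arrays left out it ran from -0.13 to 0.13, Nlrp3 from -0.14 to 0.20, Casp1 from -0.085 to 0.012 and Trem1 from -0.077 to 0.086. For CIA+MLIF against adjuvant+MLIF, the left-out arrays gave -0.32 to 0.077 for Tlr4, -0.10 to 0.049 for Myd88, -0.11 to 0.013 for Casp4 and -0.090 to 0.042 for Trem1. For the interaction, Tlr4 had -0.00047 after quantile normalization, -0.12 after centring and -0.0075 under the added setting, and Nlrp3 had -0.16 after quantile normalization and -0.27 under the added setting. With arrays left out, the interaction ran from -0.39 to 0.13 for Tlr2, from -0.087 to 0.31 for Tlr4, from -0.13 to 0.65 for Nlrp3 and from -0.70 to 0.38 for Casp1. The cause of these turns was not tested. The deposited table holds no detection calls, so signals near the control entries limit what can be read of Clec4d, Clec4e, Trem1 and Nlrp3.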
